A study of Homo sapiens with 8 samples.

Results

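The genes of cholesterol and fatty acid synthesis were examined in RNA sequencing libraries of Ishikawa, an established cell line that was derived from a human endometrial adenocarcinoma. The set holds 32 genes, chosen by symbol for their place in these pathways, of 26364 genes in the count table. By role they are 7 genes of the mevalonate steps, 11 of the squalene and sterol steps, 6 regulators and a sterol carrier, and 8 of fatty acid synthesis and desaturation. All 32 were among the 14201 genes with enough counts to be tested. Cells had received 100 nM dexamethasone (Dex), a synthetic glucocorticoid, 10 nM estradiol (E2), the principal estrogen, both hormones at these doses (Dex_E2), or the vehicle DMSO, with 2 libraries in each of the 4 groups. All groups, DMSO included, had been kept in medium free of phenol red, with serum stripped by charcoal, which removes steroids. The labels of the samples give 8 hr of treatment and the protocol shared by the series gives 1 hr, and the sources used here do not settle which applies to the RNA. Nothing in the labels ties the 2 libraries of each group to different cultures, so the spread behind each p-value may be technical. In the table, 1 of the Dex_E2 libraries carries no replicate number of its own and is called unnumbered.

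Cholesterol is built from acetyl-CoA through mevalonate, isoprenoid units, squalene and a series of sterol intermediates, and fatty acids are built from the same acetyl-CoA by carboxylation, chain synthesis, elongation and desaturation. Both branches are transcribed under the sterol regulatory element binding proteins (SREBPs), which SREBF1 and SREBF2 encode. When sterols are low, the escort protein SCAP carries the SREBPs from the endoplasmic reticulum to the Golgi, where they are cut and released to the nucleus, and when sterols are high, the INSIG proteins hold SCAP back. SREBPs bind sterol regulatory elements, commonly together with the factor NF-Y at a CCAAT box. Cholesterol is a membrane lipid and the precursor of the steroid hormones, and dividing cells such as those of a carcinoma need sterols and fatty acids for new membrane.

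Promoter windows of 5 members are given. FADS1 and FADS2 are the members that passed the test, and INSIG1 had the smallest p of the regulators with Dex. HMGCS1 is an example with the NF-Y box alone. SREBF2 was the only member with a match to the sterol regulatory element. The sequences are RefSeq reference sequence of build GRCh38.p14, which is another build than that of the counts, and run from 250 bases before to 50 bases after an annotated start, 5′ to 3′ on the strand of the gene. Capitals mark matches to the sterol regulatory element TCACNCCAC and to the NF-Y box CCAAT on either strand (the box reads ATTGG where it lies on the opposite strand). For FADS2 and HMGCS1, each of which has more than 1 window, the window that holds the box is shown.
FADS1 (chr11:61816954-61817253, minus strand): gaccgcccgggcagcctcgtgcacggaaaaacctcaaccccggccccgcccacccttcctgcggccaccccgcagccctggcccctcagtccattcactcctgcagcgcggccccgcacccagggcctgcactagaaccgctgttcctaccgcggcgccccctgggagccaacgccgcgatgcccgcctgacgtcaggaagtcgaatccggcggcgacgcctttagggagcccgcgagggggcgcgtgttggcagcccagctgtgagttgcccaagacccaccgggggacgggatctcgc
FADS2 (chr11:61816154-61816453, plus strand): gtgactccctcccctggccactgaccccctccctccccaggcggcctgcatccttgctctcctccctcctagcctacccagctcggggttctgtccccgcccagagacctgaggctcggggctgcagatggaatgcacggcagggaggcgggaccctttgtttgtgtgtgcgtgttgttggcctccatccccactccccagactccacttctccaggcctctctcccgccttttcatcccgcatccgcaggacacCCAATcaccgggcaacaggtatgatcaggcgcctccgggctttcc
INSIG1 (chr7:155297628-155297927, plus strand): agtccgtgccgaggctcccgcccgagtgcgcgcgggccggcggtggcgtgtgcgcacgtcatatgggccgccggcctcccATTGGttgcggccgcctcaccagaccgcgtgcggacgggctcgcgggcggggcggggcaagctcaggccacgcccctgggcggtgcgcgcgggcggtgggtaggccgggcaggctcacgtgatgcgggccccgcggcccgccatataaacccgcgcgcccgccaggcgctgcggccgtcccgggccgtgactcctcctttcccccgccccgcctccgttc
HMGCS1 (chr5:43313363-43313662, minus strand): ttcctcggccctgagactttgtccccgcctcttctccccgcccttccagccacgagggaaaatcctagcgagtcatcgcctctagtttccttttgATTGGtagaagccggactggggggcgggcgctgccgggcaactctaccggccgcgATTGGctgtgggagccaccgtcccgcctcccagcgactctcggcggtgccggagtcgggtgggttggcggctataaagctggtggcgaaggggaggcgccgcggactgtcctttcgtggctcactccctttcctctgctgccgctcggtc
SREBF2 (chr22:41832855-41833154, plus strand): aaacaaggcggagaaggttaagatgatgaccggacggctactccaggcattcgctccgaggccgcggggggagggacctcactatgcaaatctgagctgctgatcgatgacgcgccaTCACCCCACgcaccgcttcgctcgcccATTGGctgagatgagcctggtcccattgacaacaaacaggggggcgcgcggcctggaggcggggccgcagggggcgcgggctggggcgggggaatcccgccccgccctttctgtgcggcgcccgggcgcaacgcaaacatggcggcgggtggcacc

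The FADS1 window holds no match to either motif, which says only that these letters are not within it. FADS1 and FADS2 lie on opposite strands of chromosome 11 with their starts close together. Of the 32 members, 28 had a window in the RefSeq table, 39 windows in all. The NF-Y box was found for 21 of these 28 genes (75%) and in 25 of the 39 windows, against 34.6% of all 35116 windows of the same length. The sterol regulatory element was found for 1 of 28 (3.57%), SREBF2, and in 1 of the 39 windows, against 1.13% of all windows. The E-box CACGTG, another sequence that SREBPs can bind, was found for 4 of 28 (14.3%), LSS, SC5D, SCAP and INSIG1. It was in 5 of the 39 windows, counting SC5D in overlapping windows, against 7.26% of all windows. A gene can have more than 1 window, so shares of genes and of windows are not like measures. The consensus estrogen response element (GGTCA and TGACC with any 3 bases between them) was found in 0 of the 28, against 0.057% of all windows. The consensus glucocorticoid response element (GNACA and TGTNC with any 3 bases between them) was also found in 0 of the 28, against 0.39% of all windows. With shares so low, 0 matches in 39 windows is not a result about these genes. Each motif was read on both strands, no motif contains another, and a match describes the letters and not binding.

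The libraries held between 17846211 and 22487333 counts, and the 32 genes together took between 0.739% and 0.782% of them. Levels are given as CPM, that is counts per 1000000 counts of the library size scaled by the TMM method. Hormone-induced genes followed the labels with 1 exception. TSC22D3 and PER1, glucocorticoid-induced genes, had 119 and 149.6 CPM and 129 and 125 CPM with Dex, against 13.0 and 15.5 CPM and 18.3 and 19.7 CPM with DMSO. PGR, the estrogen-induced progesterone receptor gene, had 41.0 and 31.8 CPM with E2, against 4.09 and 2.53 CPM with DMSO. With Dex_E2, TSC22D3 had 70.0 and 63.5 CPM, PER1 90.6 and 95.7 CPM and PGR 36.5 and 37.3 CPM. TSC22D3 and PER1 were thus above DMSO in both Dex_E2 libraries but below both Dex libraries. Dex replicate 1 stood apart, with 8.91 CPM of PGR and 17.7 CPM of GREB1, another estrogen-induced gene, against 2.47 and 6.85 CPM in Dex replicate 2. Dex replicate 2 stood apart in other measures, with 1.42% of its counts on the ribosomal precursor gene RNA45S5, against 2.79% to 4.03% in the other 7 libraries, and with the fewest genes detected, 16969, against at least 17219 in the others. The edgeR calls on comparisons that hold the Dex libraries are therefore also given without each of these libraries, and the part of these differences in the results was not tested. All 8 epithelial markers were present, with KRT8 up to 1967 CPM. Their summed level was 4526 and 5010.4 CPM in the Dex libraries, against 3492 and 4053 CPM in the DMSO libraries, which did not overlap, and its part in the results was not tested. The summed markers of leukocytes reached 2.12 CPM, of endothelium 4.38 CPM (3.61 and 4.38 CPM with Dex, against 1.85 and 2.52 CPM with DMSO), of adipocytes 0.507 CPM and of hepatocytes 0.177 CPM, and those of fibroblasts lay between 137 and 200.1 CPM, mostly COL1A1. In libraries of whole cultures, less RNA per cell and fewer cells with that RNA cannot be told apart.

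RNA of all 32 genes was present in every group. Per kilobase of annotated exon, the DMSO level was highest for SCD, the desaturase that makes monounsaturated fatty acids, at 205 CPM per kb, followed by the fatty acid synthase gene FASN at 174, DHCR7, the enzyme of the last step of cholesterol synthesis, at 130, FADS2 at 114 and the citrate lyase gene ACLY at 102 CPM per kb. It was lowest for HSD17B7, a sterol ketone reductase, at 6.22 CPM per kb, ELOVL6, an elongase of long-chain fatty acids, at 7.09 and INSIG2 at 9.93 CPM per kb. Over all 8 libraries the highest CPM of a gene was between 1.09 times the lowest, for SREBF2, and 1.59 times, for IDI1, the isomerase that makes dimethylallyl diphosphate. FADS1 (1.56 times) and FADS2 (1.51 times) came next. None of the 32 genes differed by more than 0.5 on the log2 scale in any of the 8 comparisons made. For Dex against DMSO 8.68% of all genes tested did, and over the 8 comparisons between 4.97% and 11.8%. The 95% intervals of all genes for Dex against DMSO had a median half-width of 0.300 and reached 4.58. Among the members they reached 0.431. All genes thus include some measured far less precisely, and 0 of 32 was not taken to set the list apart. All 95% intervals of the members' log2 fold changes lay between -1 and 1. The half-width of the members' intervals had a median of 0.237 for Dex against DMSO. Smaller changes mostly had intervals that held 0, and a call after adjustment needed larger ones. INSIG1 at -0.38 and FASN at -0.30 were not called (edgeR adjusted p = 0.124 and 0.360).

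**Figure D1:**
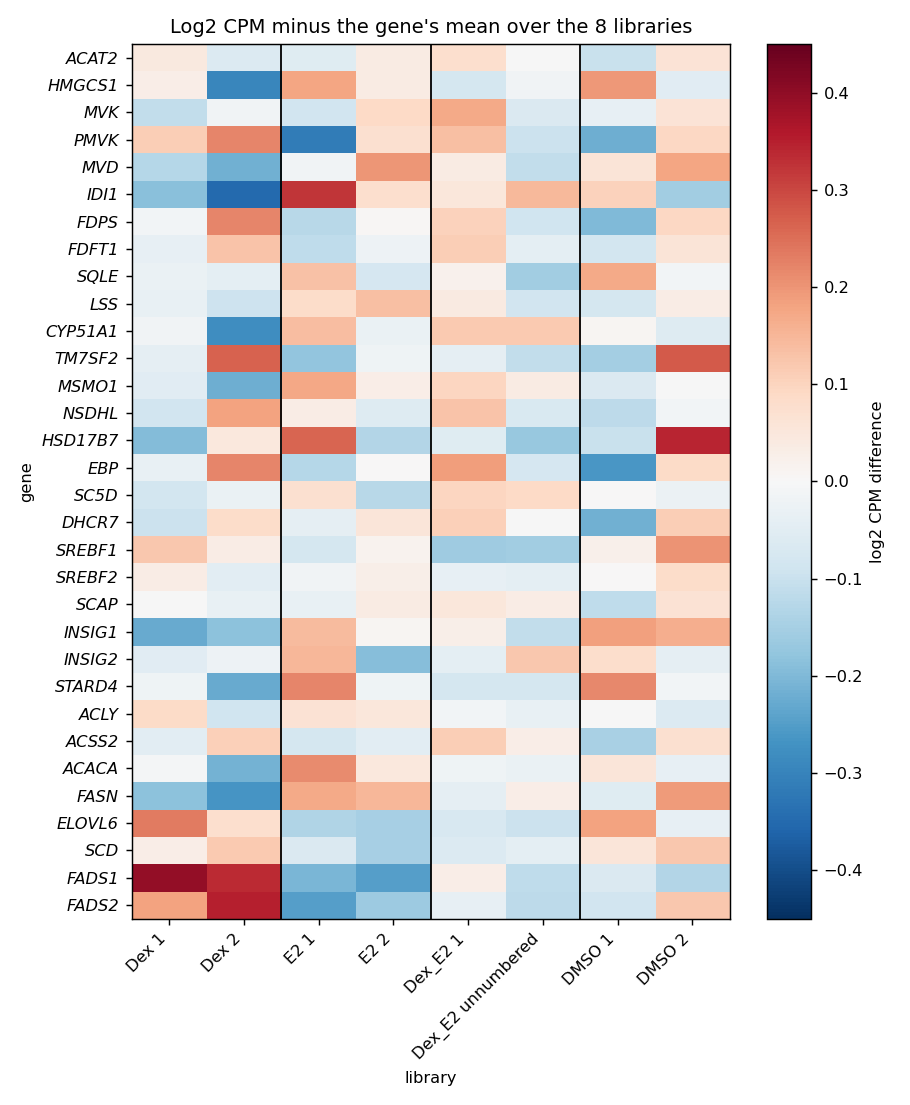
Log2 CPM of each of the 32 genes (vertical axis) in each of the 8 libraries (horizontal axis) minus the gene's mean over the libraries, from blue (below the mean) to red (above it). FADS1 and FADS2 are red in both Dex libraries and blue in both E2 libraries, while INSIG1 and FASN are blue in both Dex libraries.

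With Dex alone, FADS1 rose and no other member passed the test. FADS1 and FADS2 encode the front-end desaturases that place further unsaturated bonds in polyunsaturated fatty acids. FADS1 had 341 and 327 CPM with Dex, 225 and 218 CPM with E2, 264 and 239 CPM with Dex_E2, and 247 and 236 CPM with DMSO. Both Dex libraries lay above all 6 others, and both E2 libraries lay below all 6 others. The log2 fold change of Dex against DMSO was 0.47 ± 0.09 (SE; 95% interval 0.26 to 0.67; edgeR adjusted p = 0.0402), with group means of 334 ± 9.78 and 242 ± 7.96 CPM (SD, n = 2 each). The call was lost without each of the 8 libraries in turn, when the log2 fold change was between 0.44 and 0.50. Without Dex replicate 1 it was 0.44, with an edgeR adjusted p of 0.152, and without Dex replicate 2 it was 0.50, with an edgeR adjusted p of 0.101. With only the 4 Dex and DMSO libraries in the fit the edgeR adjusted p was 0.219. All genes tested gave 137 calls (0.965%), of which those higher were 0.908% of the genes tested, and 1 call of 32 does not set the list apart from them. At an unadjusted p under 0.05 there were 5 members (15.6%), 2 higher and 3 lower, against 9.84% of all genes. Dex and DMSO libraries did not overlap for 10 members, 3 higher and 7 lower, against 36.2% of all genes (18.5% higher and 17.7% lower). The median log2 fold change over the members was -0.04, against 0.00 over all genes.

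FADS2 had 635 and 713 CPM with Dex, 471 and 499 CPM with E2, 545 and 516 CPM with Dex_E2, and 528 and 609 CPM with DMSO. The Dex libraries were again the highest and the E2 libraries the lowest, and the DMSO libraries lay between them. Its log2 fold change with Dex was 0.25 ± 0.11 (SE, edgeR adjusted p = 0.479), which did not pass the test. Their relative FADS3, which lies next to them, had 12.2 and 12.9 CPM with Dex, 10.1 and 11.3 CPM with E2, 12.2 and 10.9 CPM with Dex_E2, and 8.45 and 8.75 CPM with DMSO. All 6 hormone-treated libraries lay above both DMSO libraries for FADS3, unlike FADS1. Its log2 fold change of Dex against DMSO was 0.54 ± 0.14 (SE, edgeR adjusted p = 0.146). FEN1, a DNA repair nuclease gene within the same cluster, had 163 and 153 CPM with Dex and 162 and 166 CPM with DMSO. The other neighbours MYRF, RAB3IL1 and TMEM258 had log2 fold changes of 0.53 ± 0.28, 0.44 ± 0.30 and 0.12 ± 0.17 with Dex (SE; edgeR adjusted p = 0.590, 0.686 and 0.858). These 5 genes were looked at as neighbours after the values were seen. In the annotation, 1.8% of FADS1 exon bases and 2.85% of FADS2 exon bases are shared with the other gene on the opposite strand. The kit is stranded, but the strand setting of the counting is not given in the sources used here.

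**Figure D2:**
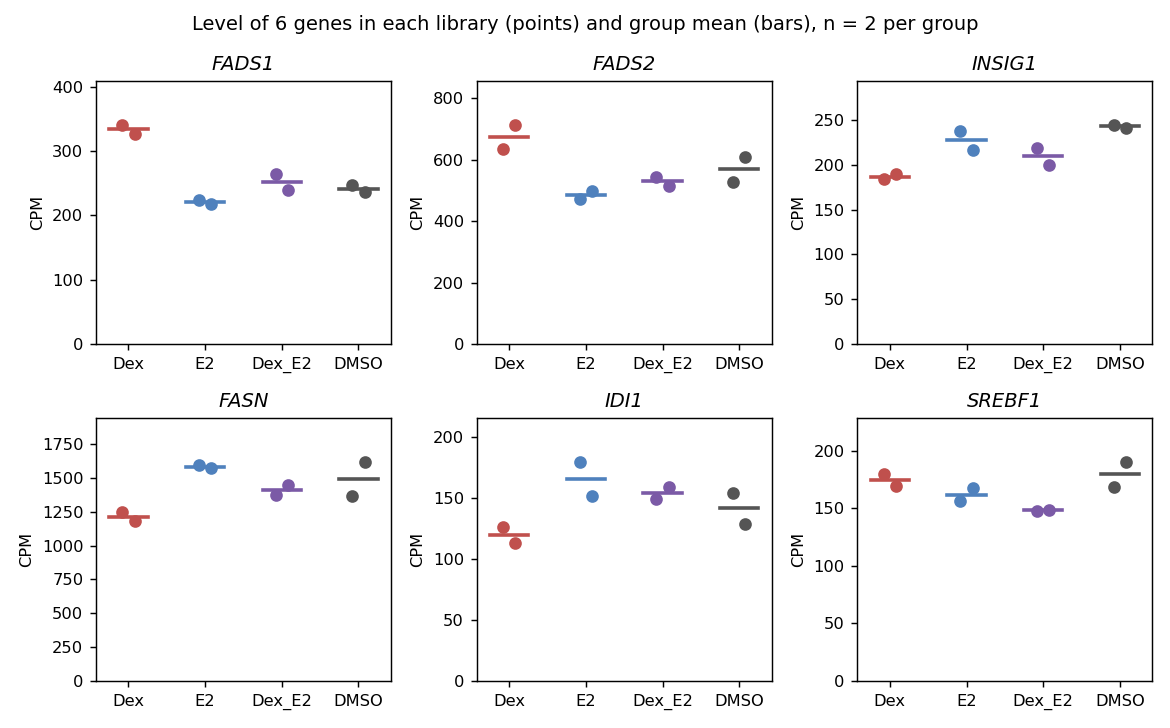
CPM (vertical axis, from 0) of FADS1, FADS2, INSIG1, FASN, IDI1 and SREBF1 in each library (points) of the groups Dex, E2, Dex_E2 and DMSO, with the mean of the 2 libraries (bars). FADS1 sits at 341 and 327 CPM with Dex, above the other 6 libraries, and INSIG1 at 184 and 189 CPM with Dex, below them.

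INSIG1, which retains SCAP in the endoplasmic reticulum and is itself an SREBP target, had the most negative log2 fold change of the members with Dex. It had 184 and 189 CPM with Dex, 237 and 216 CPM with E2, 219 and 199 CPM with Dex_E2, and 244 and 241 CPM with DMSO. Both Dex libraries lay below all others and both DMSO libraries above all others. The log2 fold change of Dex against DMSO was -0.38 ± 0.09 (SE; 95% interval -0.58 to -0.17; edgeR adjusted p = 0.124), which missed the threshold. DESeq2 called it (adjusted p = 0.0280). The edgeR log2 fold change was -0.36 without Dex replicate 1 (edgeR adjusted p = 0.248) and -0.40 without Dex replicate 2 (edgeR adjusted p = 0.319).

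The other regulators gave smaller differences with Dex. INSIG2, a relative of INSIG1 with the same role, had 24.5 and 24.97 CPM with Dex, 28.1 and 22.2 CPM with E2, 24.6 and 27.6 CPM with Dex_E2, and 26.8 and 24.7 CPM with DMSO, and all groups overlapped. SREBF2, whose product acts mainly on the cholesterol branch, had 286 and 270.0 CPM with Dex, 276 and 285 CPM with E2, 272 and 271 CPM with Dex_E2, and 279.6 and 296 CPM with DMSO. SCAP had 186 and 182 CPM with Dex, 182 and 192 CPM with E2, 193 and 191 CPM with Dex_E2, and 172 and 195 CPM with DMSO. SREBF2 was within -0.24 and 0.14 on the log2 scale of DMSO by the 95% interval for Dex, and SCAP within -0.20 and 0.21. STARD4, a soluble sterol carrier, had a log2 fold change of -0.22 ± 0.12 with Dex (SE, edgeR adjusted p = 0.592).

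SREBF1, whose product acts mainly on fatty acid synthesis, was lowest in both Dex_E2 libraries. It had 180.3 and 169.7 CPM with Dex, 157 and 167 CPM with E2, 148 and 149 CPM with Dex_E2, and 168 and 191 CPM with DMSO. The Dex_E2 libraries differed from each other by less than 1 CPM and lay below all 6 others. Against DMSO the log2 fold change of Dex_E2 was -0.28 ± 0.09 (SE, edgeR adjusted p = 0.259), and against Dex it was -0.24 ± 0.09 (SE, edgeR adjusted p = 0.236). Neither passed the test. SREBF1 is counted as a whole gene here, so its transcripts with different starts are not told apart.

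Among the 7 mevalonate genes edgeR called 0 in each of the 8 comparisons, with at most 1 at an unadjusted p under 0.05, and DESeq2 called 1, IDI1 under the average E2 effect. Between 0.0211% and 5.8% of all genes were called by edgeR, so 0 of 7 is not a result about these genes. HMGCS1, which makes HMG-CoA, had 310.4 and 248 CPM with Dex, 344 and 313 CPM with E2, 288 and 301 CPM with Dex_E2, and 349 and 294 CPM with DMSO. Its libraries overlapped between Dex and DMSO, and the log2 fold change was -0.20 ± 0.13 (SE, edgeR adjusted p = 0.650). IDI1 had 126 and 113 CPM with Dex, 179.8 and 151 CPM with E2, 149 and 159 CPM with Dex_E2, and 154 and 129 CPM with DMSO. Its Dex libraries were the lowest of the 8, close under DMSO replicate 2. Dex_E2 stood above Dex by 0.37 ± 0.12 (SE, edgeR adjusted p = 0.155). MVD, which decarboxylates mevalonate diphosphate, had a log2 fold change of -0.29 ± 0.11 with Dex (SE, edgeR adjusted p = 0.389). MVK and PMVK, the kinases of mevalonate, ACAT2, the thiolase that starts the pathway, and FDPS, which makes farnesyl diphosphate, had log2 fold changes between -0.08 and 0.22 with Dex. ACAT2 shares 69.6%, FDPS 28.9%, HMGCS1 19.9% and, of the sterol genes, LSS 10.6% of exon bases with genes on the opposite strand (SOD2, SOD2-OT1 and TCP1 for ACAT2, RUSC1-AS1 for FDPS), so their values are uncertain if strand was not used in counting.

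The 11 genes of the squalene and sterol steps gave 0 calls by edgeR and 0 by DESeq2 in each of the 8 comparisons, with at most 2 at an unadjusted p under 0.05. Against 0.0211% to 5.8% of all genes called by edgeR, 0 of 11 is not a result about them. SQLE, the squalene epoxidase and a rate-controlling step, had 31.4 and 31.1 CPM with Dex, 35.2 and 30.5 CPM with E2, 32.6 and 28.9 CPM with Dex_E2, and 36.2 and 31.8 CPM with DMSO. DHCR7 had 335 and 379 CPM with Dex, 348 and 371 CPM with E2, 386 and 357 CPM with Dex_E2, and 308 and 386 CPM with DMSO. For DHCR7 the DMSO libraries were the lowest and the highest of the 8, and for SQLE no group but Dex lay clear of DMSO. By the 95% intervals of Dex against DMSO, SQLE lay between -0.38 and 0.14 and DHCR7 between -0.23 and 0.31 on the log2 scale. Over the 11 genes the log2 fold changes ran from -0.21 to 0.17 with Dex, from -0.17 to 0.14 with E2 and from -0.25 to 0.14 with Dex_E2, all against DMSO. CYP51A1, the lanosterol demethylase, MSMO1, the sterol methyl oxidase, and SC5D, a sterol desaturase, had higher values in both Dex_E2 libraries than in both DMSO libraries and did not pass the test (edgeR adjusted p = 0.771 for CYP51A1). CYP51A1 has processed copies in the genome (CYP51A1P1 and CYP51A1P2, 96.6% and 97.0% identical over 1510 and 1509 bases). It also matches transcripts of AC000120.2 on the same strand (100% over 2846 bases). HSD17B7 has HSD17B7P2 (99.5% over 410 bases), and SCD has SCDP1 (96.7% over 1081 bases) and AC126365.1 (95.5% over 1520 bases). Reads of these genes could therefore have been divided or lost.

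**Figure D3:**
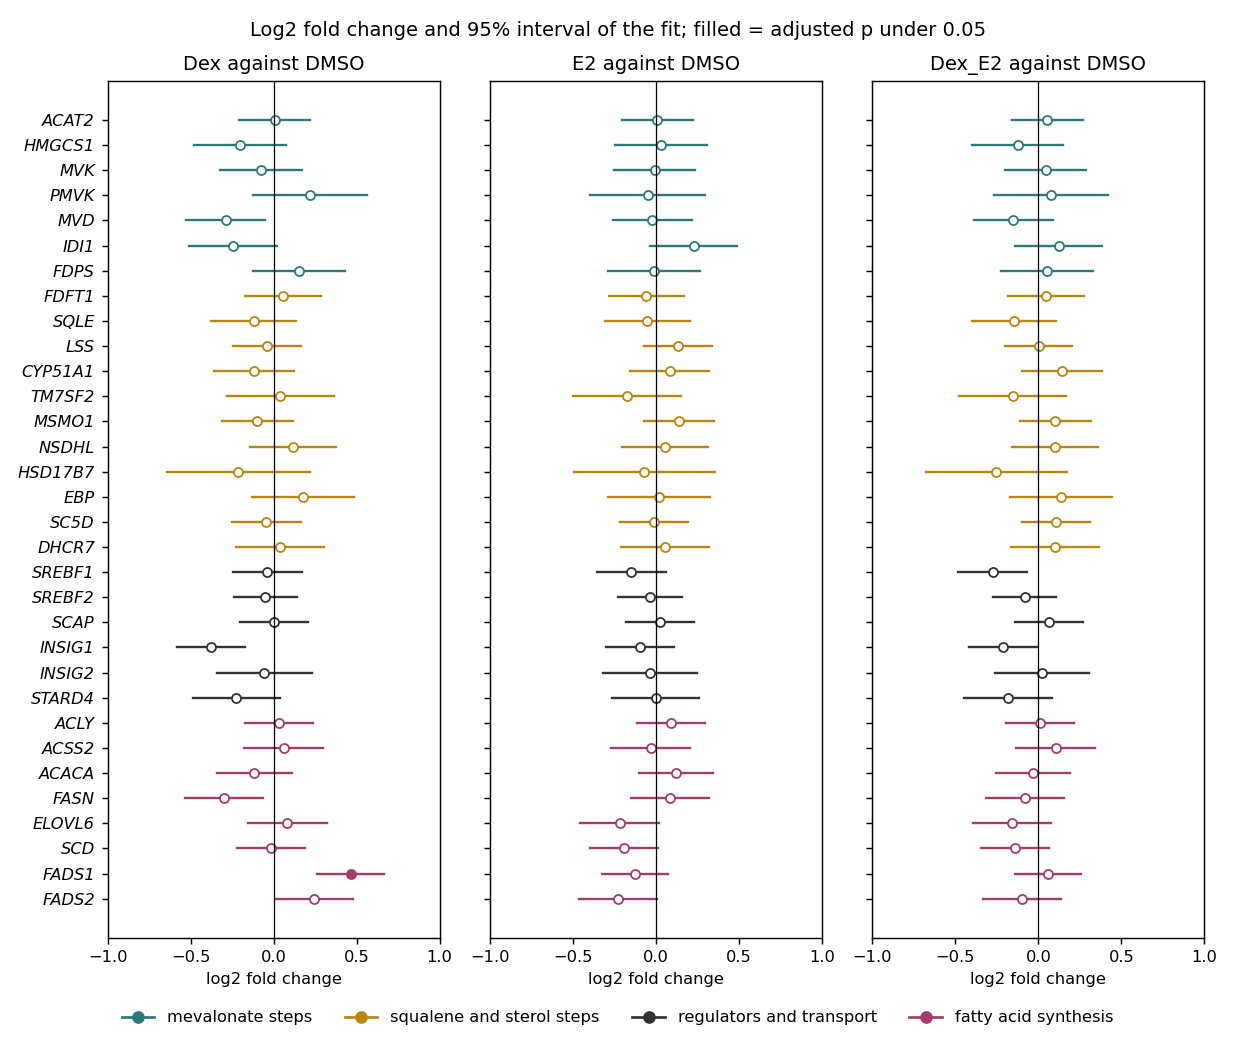
Log2 fold change (horizontal axis) and its 95% interval for each of the 32 genes (vertical axis) for Dex, E2 and Dex_E2, each against DMSO, coloured by role, where a filled point has an edgeR adjusted p under 0.05. The only filled point is FADS1 with Dex, at 0.47, and every interval lies between -1 and 1.

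Of the fatty acid genes other than FADS1 and FADS2, FASN differed most with Dex. FASN had 1249 and 1180.3 CPM with Dex, 1597 and 1570.4 CPM with E2, 1377 and 1448 CPM with Dex_E2, and 1366 and 1620.2 CPM with DMSO. Both Dex libraries were the lowest of the 8, while DMSO replicate 1 lay below both E2 libraries. The log2 fold change of Dex against DMSO was -0.30 ± 0.11 (SE, edgeR adjusted p = 0.360), which did not pass the test. ACACA, the carboxylase that commits acetyl-CoA to fatty acids, had 149 and 129 CPM with Dex, 173 and 155 CPM with E2, 148 and 147 CPM with Dex_E2, and 156 and 146 CPM with DMSO. ACLY, which supplies cytosolic acetyl-CoA, had 486 and 431 CPM with Dex, 479 and 474 CPM with E2, 454 and 447 CPM with Dex_E2, and 457 and 439 CPM with DMSO. ACACA and ACLY overlapped between Dex and DMSO, with log2 fold changes of -0.12 and 0.03. SCD had 1057 and 1122 CPM with Dex, 989.8 and 933 CPM with E2, 991 and 1003 CPM with Dex_E2, and 1075 and 1125 CPM with DMSO. All 4 libraries with estradiol lay below all 4 without it. For E2 against DMSO the SCD log2 fold change was -0.19 ± 0.09 (SE, edgeR adjusted p = 0.478). ELOVL6 had 52.5 and 47.0 CPM with Dex, 40.6 and 40.2 CPM with E2, 42.5 and 41.7 CPM with Dex_E2, and 50.6 and 43.5 CPM with DMSO. Here, too, the 4 libraries with estradiol were the 4 lowest, and its log2 fold change for E2 against DMSO was -0.22 ± 0.11 (SE, edgeR adjusted p = 0.494).

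With E2 alone 0 of the 32 members were called by edgeR and 0 by DESeq2, and 0 had an unadjusted p under 0.05, against 1.8% of all genes called and 11.4% at an unadjusted p under 0.05. E2 and DMSO libraries did not overlap for 9 members, 3 higher and 6 lower, against 36.2% of all genes (18.3% higher and 17.9% lower). The 95% intervals of all 32 genes lay within 0.50 of 0 on the log2 scale. FADS1 and FADS2 had log2 fold changes of -0.13 ± 0.09 and -0.23 ± 0.11 (SE; edgeR adjusted p = 0.731 and 0.454).

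With Dex_E2 against DMSO, 0 members were called by edgeR and 0 by DESeq2, against 2.19% of all genes by edgeR. At an unadjusted p under 0.05 there were 2 members, SREBF1 and INSIG1, both lower, which is 6.25% against 10.8% of all genes. INSIG1 had a log2 fold change of -0.21 ± 0.09 (SE, edgeR adjusted p = 0.427). FADS1 was at 0.06 ± 0.09 (SE; 95% interval -0.14 to 0.26; edgeR adjusted p = 0.918), so that with both hormones its level was not told apart from that of DMSO. Libraries of the groups did not overlap for 10 members, 3 higher and 7 lower, against 39.1% of all genes (19.8% higher and 19.3% lower).

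Set against Dex alone, FADS1 was lower with both hormones, at 252 ± 17.6 CPM with Dex_E2 and 334 ± 9.78 CPM with Dex (SD, n = 2 each). The log2 fold change was -0.41 ± 0.09 (SE; 95% interval -0.61 to -0.21; edgeR adjusted p = 0.0419). This comparison uses the same Dex libraries as that of Dex against DMSO. TSC22D3 and PER1 were also lower with Dex_E2 than with Dex, with log2 fold changes of -1.01 ± 0.13 and -0.45 ± 0.10 (SE). Whether the FADS1 difference is related to theirs was not tested. Without Dex replicate 1 the FADS1 value was -0.38, and without Dex replicate 2 it was -0.44. The FADS1 call was kept without either DMSO library and lost without each of the other 6. Without the unnumbered Dex_E2 library the FADS1 value was -0.34. The 1 member called compares with 2.67% of all genes called, 1.84% in the lower direction, and the 6 members at an unadjusted p under 0.05 (18.8%) with 16.7%. Libraries of the groups did not overlap for 14 members, 8 higher and 6 lower with Dex_E2, against 49.8% of all genes (24.8% higher and 25% lower). FADS2 had -0.35 ± 0.11 (SE, edgeR adjusted p = 0.130), and -0.43 without Dex replicate 1 (edgeR adjusted p = 0.0946).

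Set against E2 alone, Dex_E2 gave 0 calls among the members by edgeR and 0 by DESeq2, with 0 at an unadjusted p under 0.05, against 0.275% and 6.37% of all genes by edgeR. FADS1 was 0.19 ± 0.09 higher on the log2 scale with Dex_E2 (SE; 95% interval -0.02 to 0.39; edgeR adjusted p = 0.840). FASN was at -0.16 ± 0.11 (SE, edgeR adjusted p = 0.949). Libraries did not overlap for 14 members, 6 higher and 8 lower with Dex_E2, against 37.7% of all genes (18.1% higher and 19.6% lower). The difference between the Dex effect with estradiol and that without it was -0.28 ± 0.13 for FADS1 (SE, edgeR adjusted p = 0.945) and 0.26 ± 0.13 for INSIG1 (SE, edgeR adjusted p = 0.958). This interaction gave 0 calls by edgeR and by DESeq2 among the members and 0 at an unadjusted p under 0.05, against 0.0211% and 5.16% of all genes by edgeR, so no member was shown to respond differently to Dex in the presence of estradiol.

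Averaged over both backgrounds, so that 4 libraries stand against 4, the Dex effect on FADS1 was 0.33 ± 0.06 (SE; edgeR adjusted p = 0.0394) and the E2 effect was -0.27 ± 0.06 (SE; edgeR adjusted p = 0.0361). FADS2 fell under the average E2 effect by 0.29 ± 0.07 on the log2 scale (SE; edgeR adjusted p = 0.0499), which is at the threshold. These averages use the same libraries as the comparisons above. The Dex average called 1 of 32 members against 1.07% of all genes (1% in the higher direction), and the E2 average called 2 of 32, both lower, against 5.8% (3.26% in the lower direction), the largest background of the 8. Without Dex replicate 1 the FADS1 averages were 0.31 (edgeR adjusted p = 0.0970) and -0.25 (0.0707), and the FADS2 average E2 effect was -0.33 (0.0379). Without Dex replicate 2 the FADS1 averages were 0.34 (edgeR adjusted p = 0.0710) and -0.28 (0.0751), and the FADS2 average E2 effect was -0.25 (0.168). The FADS1 averages lost their calls without each of the 8 libraries in turn, and FADS2 kept its call only without Dex replicate 1 or DMSO replicate 1. IDI1 had an average E2 effect of 0.30 ± 0.08 (SE; edgeR adjusted p = 0.0720), which DESeq2 called (adjusted p = 0.0230), and by edgeR 0.34 without Dex replicate 1 (edgeR adjusted p = 0.0627) and 0.25 without Dex replicate 2 (edgeR adjusted p = 0.227). At an unadjusted p under 0.05 there were 6 members for Dex (18.8%) and 8 for E2 (25%), against 10.2% and 20.1% of all genes. For E2 these were FADS1, FADS2, ELOVL6, SREBF1 and SCD, all lower, and IDI1, MSMO1 and CYP51A1, all higher.

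Neighbouring lipid pathways were read from 5 lists of genes that are no members. Over the 8 comparisons edgeR called between 0.0211% and 5.8% of all genes tested, and between 5.16% and 20.1% had an unadjusted p under 0.05. The lists were not tested as sets. Of 8 tested genes of glycerolipid synthesis, AGPAT2, the acyltransferase that makes phosphatidic acid, was the only one that edgeR called (DESeq2 also called GPAM, which starts the pathway, as higher with Dex_E2 against Dex and under the average E2 effect). It had 213 and 217 CPM with Dex, 199 and 217 CPM with E2, 314 and 283 CPM with Dex_E2, and 114 and 139 CPM with DMSO. All 6 hormone-treated libraries lay above both DMSO libraries, and both Dex_E2 libraries above all others. Against DMSO its log2 fold changes were 0.77 ± 0.11 with Dex, 0.72 ± 0.11 with E2 and 1.24 ± 0.11 with Dex_E2 (SE; edgeR adjusted p = 0.00683, 0.00756 and 0.000232). Without Dex replicate 1 the Dex value was 0.78 (edgeR adjusted p = 0.0354), and without Dex replicate 2 it was 0.75 (edgeR adjusted p = 0.0386). The E2 call was lost only without E2 replicate 2 (edgeR adjusted p = 0.129), and the others were kept without each library. Dex_E2 against Dex gave 0.47 ± 0.11 (SE, edgeR adjusted p = 0.0491), and 0.46 without Dex replicate 1 (edgeR adjusted p = 0.128) and 0.49 without Dex replicate 2 (edgeR adjusted p = 0.256). Its average effects were 0.64 ± 0.08 for Dex and 0.60 ± 0.08 for E2 (SE; edgeR adjusted p = 0.00153 and 0.00128), 0.65 and 0.59 without Dex replicate 1, and 0.64 and 0.60 without Dex replicate 2, and kept their calls without each library. The difference between its Dex effects with and without estradiol was -0.25 ± 0.16 (SE, edgeR adjusted p = 1.00).

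Of 16 genes of sterol uptake, transport and efflux, ABCA1, the pump that exports cholesterol to apolipoproteins, was the only one called. It had 22.7 and 24.5 CPM with Dex, 15.9 and 10.9 CPM with E2, 10.9 and 13.3 CPM with Dex_E2, and 21.6 and 20.9 CPM with DMSO. All 4 libraries with estradiol lay below all 4 without it. Its average E2 effect was -0.82 ± 0.12 (SE, edgeR adjusted p = 0.00271), -0.85 without Dex replicate 1 (edgeR adjusted p = 0.00437) and -0.79 without Dex replicate 2 (edgeR adjusted p = 0.0103), and the call was kept without each library. Dex_E2 against DMSO gave -0.81 ± 0.17 (SE, edgeR adjusted p = 0.0340), a call that was lost without any library of either group (edgeR adjusted p up to 0.335). Dex_E2 against Dex gave -0.96 ± 0.17 (SE, edgeR adjusted p = 0.0158), and -1.01 without Dex replicate 1 (edgeR adjusted p = 0.0296). That call was lost without Dex replicate 2 (-0.91, edgeR adjusted p = 0.105) and without Dex_E2 replicate 1 (edgeR adjusted p = 0.153).

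Of 18 tested genes of fatty acid elongation, activation and supply, SCD5, the other human stearoyl-CoA desaturase, was the only one called. It had 182 and 229 CPM with Dex, 128 and 119 CPM with E2, 152 and 145 CPM with Dex_E2, and 171 and 200.5 CPM with DMSO. As for SCD, the 4 libraries with estradiol lay below the 4 without it. E2 against DMSO gave -0.58 ± 0.12 (SE, edgeR adjusted p = 0.0401), which was lost without 5 of the 8 libraries, and the average E2 effect was -0.52 ± 0.09 (SE, edgeR adjusted p = 0.00492), which was kept without each and was -0.60 without Dex replicate 1 and -0.44 without Dex replicate 2. Of 10 isoprenoid genes, RABGGTB, a subunit of the enzyme that attaches geranylgeranyl groups to Rab proteins, was higher under the average E2 effect by 0.36 ± 0.07 (SE, edgeR adjusted p = 0.00940). It had 42.8 and 40.0 CPM with Dex, 58.4 and 56.4 CPM with E2, 53.5 and 51.6 CPM with Dex_E2, and 45.3 and 43.3 CPM with DMSO. That call was lost only without Dex_E2 replicate 1 (edgeR adjusted p = 0.0644), and the value was 0.38 without Dex replicate 1 and 0.33 without Dex replicate 2. The 12 genes of SREBP processing and sterol degradation gave 0 calls by edgeR and 0 by DESeq2 in each comparison. At most 1 of them had an unadjusted p under 0.05. Beside 0.0211% to 5.8% of all genes called by edgeR, 0 of 12 is not a result about them.

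Libraries of the same group also differed from each other in these genes. The median size of the log2 difference between the 2 libraries of a group over the members was 0.158 for Dex, 0.130 for E2, 0.0810 for Dex_E2 and 0.171 for DMSO, and the largest was 0.444, for HSD17B7 in DMSO. In 18 of the 32 genes (56.2%), replicate 2 differed from replicate 1 in the same direction in Dex, E2 and DMSO, 9 higher and 9 lower, against 43.1% of all genes tested. TM7SF2, a sterol reductase, was higher in replicate 2 by 0.30 in Dex, 0.16 in E2 and 0.43 in DMSO on the log2 scale, and EBP, a sterol isomerase, by 0.25, 0.13 and 0.35. HMGCS1 was lower in replicate 2, with -0.32 in Dex, -0.14 in E2 and -0.25 in DMSO, and so was STARD4, with -0.21, -0.24 and -0.23. FADS1 differed by no more than 0.07 between replicates in each of these 3 groups. In Dex_E2 its difference was larger, at -0.14 for the unnumbered library minus replicate 1. Dex replicate 2 held the lowest CPM of the 8 libraries for 11 members and the highest for 6, and DMSO replicate 2 the highest for 8.

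**Figure D4:**
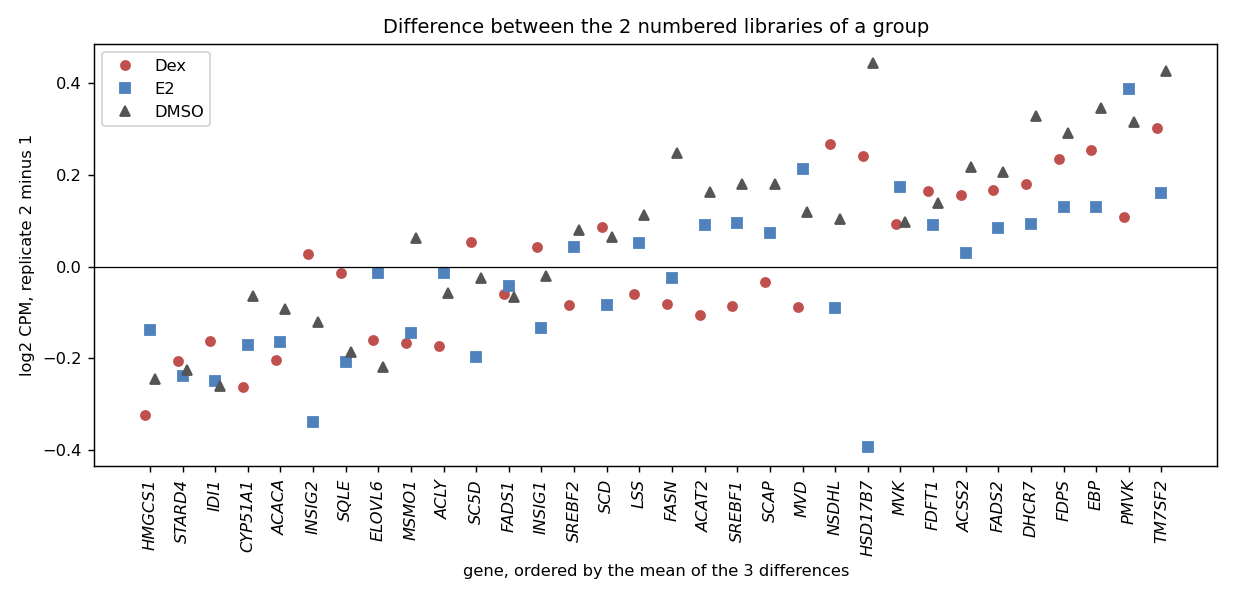
Log2 CPM of replicate 2 minus that of replicate 1 (vertical axis) for each of the 32 genes (horizontal axis, ordered by the mean of the 3 differences) in Dex (circles), E2 (squares) and DMSO (triangles). HMGCS1, STARD4 and IDI1 at the left lie below 0 in all 3 groups, and TM7SF2, PMVK, EBP and FDPS at the right lie above 0 in all 3.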

How the data were processed

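The authors deposited whole-number counts per gene for 8 libraries, and the kit was a stranded mRNA kit, per the labels' protocols. The submitters' processing notes name HISAT2 2.0.4, featureCounts 1.5.1 of Subread, DESeq2 1.14.1 and build hg19. Which annotation was counted, and whether by strand, is not given in the sources used here. A normalised table also deposited was not used. Columns were assigned to samples by name, and 1 Dex_E2 column could be assigned only to its group.

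Genes that passed filterByExpr were scaled by TMM and tested in R 4.3.3 with edgeR 4.0.16, which uses limma 3.58.1, by glmQLFit and glmQLFTest on all 8 libraries and 4 groups, 2-sided, leaving 4 residual degrees of freedom. Benjamini-Hochberg adjustment ran over the 14201 genes tested, with a threshold of 0.05. Standard errors and 95% intervals were computed from each log2 fold change and its F value. edgeR draws on the spread of all genes, which adds to the residual degrees of freedom. The intervals used this total, with a median of 10.8 for the members. DESeq2 1.42.0, RLE scaling, other filters, fewer libraries and a replicate block were the alternatives. The tests were tested on simulated counts. Totals of 17846211 to 22487333 counts leave low genes such as HSD17B7 the least precise. No sample was left out of the main tests.

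Members, lists and tests were chosen with earlier results of these data known. Values in every library are given for members called in at least 1 of 8 comparisons, for the 2 members with the smallest p in each, and for the regulators and enzymes that stand for the steps. In other lists only called genes are named, and TSC22D3, PER1, PGR and GREB1 check the hormones. Exon lengths and overlaps came from GENCODE on GRCh38, near-identical copies from blastn 2.17.0 (at least 95% identity over 100 bases), and promoter windows from RefSeq. The 2 libraries of each group differed by more than sampling noise (lowest chi-square per degree of freedom 9.93).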

Additional observations from a re-analysis of the deposited data

How the results depend on the processing

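No alternative reversed the log2 fold change of a gene that edgeR called or of a member at an unadjusted p under 0.05, each in that comparison, and smaller differences were not recomputed. For Dex against DMSO the members called were 2 with DESeq2 (FADS1 and INSIG1), 0 with only the 4 libraries compared, and 0 to 0 over the fits that left out each library in turn. For Dex_E2 against Dex they were 0 with only the 4 libraries compared and 0 to 1 leaving out each library. The average Dex effect gave 0 to 0 and the average E2 effect 0 to 2 leaving out each library, where the 2 without DMSO replicate 1 were IDI1 and FADS2, and the average E2 effect gave 1 (FADS1) with RLE scaling. Apart from the replicate block, every other setting tried left the count of members within 1.5 times its value, though DESeq2 and the fit with no filter each added IDI1 to the average E2 effect. FADS1 with Dex had adjusted p-values between 0.00097 and 0.219 over 14 alternatives.

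The replicate number was used as a block on the 6 numbered libraries of Dex, E2 and DMSO. The members called by edgeR were then 2 for Dex against DMSO (FADS1, and INSIG1 at an adjusted p of 0.0450) and 0 for E2 against DMSO. In all, 239 and 441 genes were called, against 137 and 256 in the main fit, which has no block and holds all 8 libraries. These 6 libraries were not fitted without the block, so its part in the counts was not tested. Replicate differences across all genes correlated at 0.049 between Dex and E2, 0.24 between Dex and DMSO and 0.15 between E2 and DMSO, and over the 32 members at 0.305, 0.735 and 0.543. Judged over all genes, where 1 of the 3 is under 0.1, the samples share a number and were not taken as pairs. No paired analysis was possible for comparisons with Dex_E2, the averages or the interaction because 1 Dex_E2 column has no number.

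Counts over all genes also moved. Leaving out each library gave 78 to 127 for Dex against DMSO (137 in all 8 libraries), 58 to 298 for E2 (256), 157 to 325 for Dex_E2 against DMSO (311), 10 to 68 against E2 (39), 89 to 488 against Dex (379), 82 to 183 for the average Dex effect (152), 422 to 904 for the average E2 effect (824) and 1 to 10 for the interaction (3). With no filter on low counts they were 253, 442, 456, 132, 658, 295, 1094 and 32 in that order. With only the libraries compared, Dex against DMSO gave 63 and Dex_E2 against E2 gave 151. DESeq2 gave 68 for Dex_E2 against E2 and 13 for the interaction, and a minimum of 1 CPM in every library gave 1 for the interaction. The cause of these shifts was not tested. With 2 libraries a group, differences of the 32 members under about 0.237 on the log2 scale mostly had 95% intervals that held 0. A call after adjustment needed larger differences.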
